A study of Mus musculus with 194 samples.

Results

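Nr4a1, Nr4a2 and Nr4a3 make up the Nr4a family of orphan nuclear receptors, and these 3 of the 19363 genes in the count table were followed across every brain structure, cocaine schedule and time. They are the members of the family by gene name. The data are 3′ RNA-seq read counts from 5 dissected structures of male C57BL/6OLAHSD mice, 6–7 weeks old on arrival. The structures were the dorsal striatum (DS), nucleus accumbens (NAc), limbic cortex (LCtx), amygdala (Amy) and lateral hypothalamus (LH). All mice were habituated with saline injections over 3 days, and cocaine was then given intraperitoneally at 20 mg/kg on 1 of 3 schedules, with tissue taken 1, 2 or 4 hr after the last dose. The 0 hr mice of each schedule came straight from the home cage and were not injected that day. No group was injected with saline in place of cocaine, so cocaine and the injection with its handling cannot be told apart. In the acute schedule cocaine was given once, and the 0 hr mice were cocaine-naive. In the repeated schedule, labelled "Chronic", it was given on 5 consecutive days, and the 0 hr mice were taken 24 hr after dose number 4. In the challenge schedule a single dose followed repeated cocaine and 21 days of abstinence, and the 0 hr mice were abstinent. Challenged and abstinent mice were therefore older at dissection than the others, so age and abstinence cannot be told apart. Each library held 1 structure of 1 mouse, and by the animal numbers in the library names the 166 samples came from 48 animals, 38 of them dissected for more than 1 structure. Results in different structures are therefore partly from the same animals. Each time point used separate mice, and groups held 3–5 mice in the DS, 2–4 in the NAc and Amy, 1–4 in the LCtx and 1–2 in the LH.

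Nr4a receptors are transcription factors for which no physiological ligand is settled, so their activity is set largely by how much of them is made. All of them are immediate-early genes (IEGs), transcribed within minutes of neuronal activity and calcium or cAMP signalling through CREB and its coactivators, and they bind DNA alone at the NBRE element or, for Nr4a1 and Nr4a2, together with retinoid X receptors. In the striatum, Nr4a1 is known for its response to dopaminergic drugs, whereas Nr4a2 is best known as a factor needed by midbrain dopamine neurons and is also a marker of claustrum and deep cortical neurons. Nr4a3 is the least studied of the family in the brain.

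The promoters of all 3 genes are shown because CREB sites are the usual entry point for the signals that induce them. The sequences are the RefSeq windows of GRCm38.p6 from 250 bases before to 50 bases after the annotated start, on the strand of the gene, and all 3 genes had an entry. Capitals mark the CRE core TGACG, the conserved part of the cAMP response element, or CGTCA, the same site on the other strand.
Nr4a1: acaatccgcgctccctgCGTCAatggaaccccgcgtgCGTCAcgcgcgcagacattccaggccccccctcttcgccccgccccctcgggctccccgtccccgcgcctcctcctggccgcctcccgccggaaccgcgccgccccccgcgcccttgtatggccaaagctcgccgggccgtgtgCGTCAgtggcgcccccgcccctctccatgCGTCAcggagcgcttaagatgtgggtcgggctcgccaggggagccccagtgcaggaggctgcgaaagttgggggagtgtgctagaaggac
Nr4a2: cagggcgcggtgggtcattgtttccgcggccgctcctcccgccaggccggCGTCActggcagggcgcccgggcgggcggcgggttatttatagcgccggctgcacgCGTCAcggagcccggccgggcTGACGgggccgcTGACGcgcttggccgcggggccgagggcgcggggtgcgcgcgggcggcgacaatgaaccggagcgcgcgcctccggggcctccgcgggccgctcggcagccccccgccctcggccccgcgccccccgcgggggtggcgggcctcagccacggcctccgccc
Nr4a3: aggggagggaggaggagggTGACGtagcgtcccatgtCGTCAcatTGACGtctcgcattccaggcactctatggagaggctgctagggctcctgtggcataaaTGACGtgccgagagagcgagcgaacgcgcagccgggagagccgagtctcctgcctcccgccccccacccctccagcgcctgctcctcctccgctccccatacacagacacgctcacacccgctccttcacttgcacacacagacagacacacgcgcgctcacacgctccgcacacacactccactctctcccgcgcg
The Nr4a1 window is chr15:101266596-101266895 on the plus strand, inside the gene's GENCODE span (15, 101254269 to 101274795). The Nr4a2 window is chr2:57123954-57124253 on the minus strand (gene 57106830 to 57124003), and the Nr4a3 window is chr4:48045055-48045354 on the plus strand (gene 48045153 to 48086447). No annotated gene overlapped any of the 3 spans. Each window held 4 CRE cores. Of 32851 RefSeq promoters of the same length, 20.8% held at least 1 CRE core and 76 promoters, 0.231%, held 4 or more. The sites lay at different places, between positions −233 and −40 in Nr4a1, between −200 and −111 in Nr4a2 and between −231 and −147 in Nr4a3 (first base of the site, counted from the start). The full palindromic CRE, TGACG followed by TCA and so holding a CRE core on each strand, was in none of the 3 windows and in 1.79% of promoters. The NBRE, AAAGG followed by TCA and searched on both strands, was also in none, and in 1.51% of promoters, and the CArG box, bound by serum response factor, was in none and in 1.63%. The windows were GC rich, at 72.3%, 81.7% and 64.7% for Nr4a1, Nr4a2 and Nr4a3 against a median of 52.7% over all promoters. A match of letters is a description of the window and was not tested as a bound site.

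Levels are given as CPM, the count of a gene scaled to the total count of its library. Over 194 libraries from 166 samples, 28 of them sequenced in 2 of the 9 runs, totals ran from 1193306 to 10367769 reads with a median of 3296647.5. The labelled structures differed in their markers: 9 markers of striatal projection neurons summed to 10860–13710 CPM in the DS against 245.8–824.1 in the LCtx, and Hcrt, Pmch and Lhx9 summed to 9012–15830 CPM in the LH and to at most 1540 elsewhere. Single libraries and 1 set of libraries stood apart. The LCtx mouse 2 of 1 hr after acute cocaine held 371.5 CPM of 4 amygdala markers and 56.3 CPM of 2 ependymal markers, against 60.3–95.2 and at most 2.2 CPM in the other 27 LCtx mice (246–413.5 CPM of amygdala markers in the Amy). The NAc mouse 1 of 0 hr in the repeated schedule held 148.8 CPM of amygdala markers, against 31.3–60.3 CPM in the other 35 NAc mice. All 8 acute LCtx mice held 7430–12480 CPM of 5 blood markers, against 300.2–1004 CPM in the 20 LCtx mice of the other schedules. The part of these tissues in the LCtx and NAc results was not tested. In these bulk samples, fewer cells that express a gene and less of its RNA per cell cannot be told apart. Where mice of the DS were sequenced in 2 runs, the CPM of Nr4a1 differed between the libraries of 1 mouse by 1.02- to 1.76-fold (median 1.29, n = 24 mice) and that of Nr4a3 by 1.01- to 1.57-fold (median 1.18). A gene was called when its Benjamini-Hochberg adjusted p from edgeR's quasi-likelihood test, adjusted over all genes tested in the contrast, was under 0.05 and its fold change over 1.2.

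In the DS, Nr4a1 and Nr4a3 rose 1 hr after cocaine on all 3 schedules. Nr4a1 had fallen from its 1 hr level at 2 hr, when its mean was 1.29 times the 0 hr mean after acute, 1.99 times after repeated and 1.31 times after challenge cocaine, while Nr4a3 was still called above 0 hr. Nr4a2 stayed at a few CPM throughout and was not called. None of the members was called at 4 hr by edgeR or DESeq2, where 0 of the 9 DS comparisons had an unadjusted p under 0.05.

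Nr4a1 encodes the receptor also known as Nur77. In naive mice its DS level was 76.6, 81.2, 117 and 145 CPM, and 1 hr after acute cocaine it was 440, 475, 493 and 581 CPM. After repeated cocaine it went from 58.6, 63.7, 85.0 and 97.2 CPM at 0 hr to 368, 452, 459 and 492 CPM at 1 hr. In challenged mice it went from 108, 194 and 241 CPM to 533, 539, 545 and 670 CPM. On each schedule, every mouse at 1 hr lay above every mouse at 0 hr, with a gap wider than the spread within either group. The log2 fold changes were 2.29 (SE 0.26, adjusted p = 3.79e-09) after acute, 2.53 (adjusted p = 2.71e-10) after repeated and 1.67 (adjusted p = 4.4e-05) after challenge cocaine. Of the 12918 genes tested in the DS, 0.697% were called higher at 1 hr after acute, 0.240% after repeated and 0.348% after challenge cocaine, and Nr4a1 and Nr4a3 were among them each time. All 3 rises were also called in the single run that held every schedule (24 DS libraries), where Nr4a1 rose by 2.59, 3.20 and 1.58 on the log2 scale.

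Nr4a1 had come down at 2 hr. The mice then lay at 72.7, 90.0, 180 and 199 CPM after acute cocaine and at 172, 217, 249 and 311 CPM after challenge. Those after repeated cocaine lay between 72.5 and 208 CPM (median 167, n = 5). These values overlapped the 0 hr group on every schedule and the 1 hr group on none. From 1 to 2 hr, Nr4a1 fell by 1.89 (adjusted p = 3.63e-07), 1.53 (adjusted p = 2.21e-05) and 1.26 (adjusted p = 0.00234) on the log2 scale in the acute, repeated and challenge schedules, in edgeR's test. Of all genes tested, 0.534%, 0.147% and 0.101% were called lower between the same times. Without challenge mouse 2 of 2 hr, the fall after challenge was −1.14 (adjusted p = 0.0521). Against 0 hr, the log2 differences at 2 hr were 0.39, 1.01 (adjusted p = 0.181) and 0.41, none of them called, though the one after repeated cocaine was called without mouse 5 of 2 hr (1.18, adjusted p = 0.0128). At 4 hr the mean levels were 89.7 ± 22 (SD, n = 4), 86.7 ± 26 (n = 4) and 147 ± 58 CPM (n = 4), with log2 differences from 0 hr of −0.23, 0.17 and −0.32.

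Nr4a3, also known as NOR-1, rose in the same groups and was still raised at 2 hr. Its DS level in naive mice was 18.04, 19.6, 23.97 and 31.5 CPM, against 94.0, 99.8, 137 and 158 CPM at 1 hr and 37.3, 71.6, 76.5 and 86.5 CPM at 2 hr after acute cocaine. In the repeated schedule the 4 mice at 0 hr lay at 5.50, 9.60, 10.2 and 17.0 CPM and those at 1 hr at 47.5, 57.2, 82.8 and 103 CPM, and the 5 mice at 2 hr ranged from 33.6 to 79.3 CPM (median 65.3). In the challenge schedule it went from 13.7, 23.9 and 26.5 CPM at 0 hr to 98.8, 99.5, 99.6 and 105 CPM at 1 hr and 86.3, 88.0, 93.8 and 140 CPM at 2 hr. At both times every mouse lay above every 0 hr mouse of its schedule. The log2 fold changes at 1 hr were 2.39 (adjusted p = 3.84e-11), 2.77 (adjusted p = 4.16e-11) and 2.24 (adjusted p = 5.62e-09) after acute, repeated and challenge cocaine. At 2 hr they were 1.51 (adjusted p = 0.000158), 2.59 (adjusted p = 1.71e-09) and 2.28 (adjusted p = 1.21e-08), where 0.619%, 0.0774% and 0.224% of all genes tested were called higher. Only in the acute schedule was Nr4a3 called lower at 2 hr than at 1 hr, with a log2 difference of −0.88 (adjusted p = 0.0133). That last call was not made in the single run that held every schedule (−0.99, adjusted p = 0.208), nor without mouse 1 or 4 of 1 hr (−0.74 and −0.82, adjusted p = 0.107 and 0.0757) or mouse 1 of 2 hr (−0.70, adjusted p = 0.0622). At 4 hr its means were 19.3, 15.3 and 27.7 CPM, and no schedule was called against 0 hr.

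Nr4a2, also known as Nurr1, was close to the limit of detection in the DS. Its group means were between 1.41 and 5.67 CPM, from 1 to 34 reads a library, where 3 reads, the floor used here, are worth 0.289 to 2.08 CPM depending on the library. The highest mouse, at 11.6 CPM, was 1 of 4 taken 4 hr after challenge, and the other 3 of that group lay between 1.37 and 3.18 CPM. At 1 hr the log2 differences from 0 hr were −0.13 (95% interval −1.42 to 1.17), 1.15 (−0.00 to 2.31) and 0.64 (−0.33 to 1.62) after acute, repeated and challenge cocaine. None was called, and the intervals leave room for changes of more than 1 log2 unit. The rise of Nr4a1 lay above the interval of Nr4a2 on each schedule, though the difference between the genes was not tested. Over all structures none of the 15 comparisons of Nr4a2 at 1 hr was called by edgeR or by DESeq2, and 2 had an unadjusted p under 0.05 in edgeR.

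**Figure D1:**
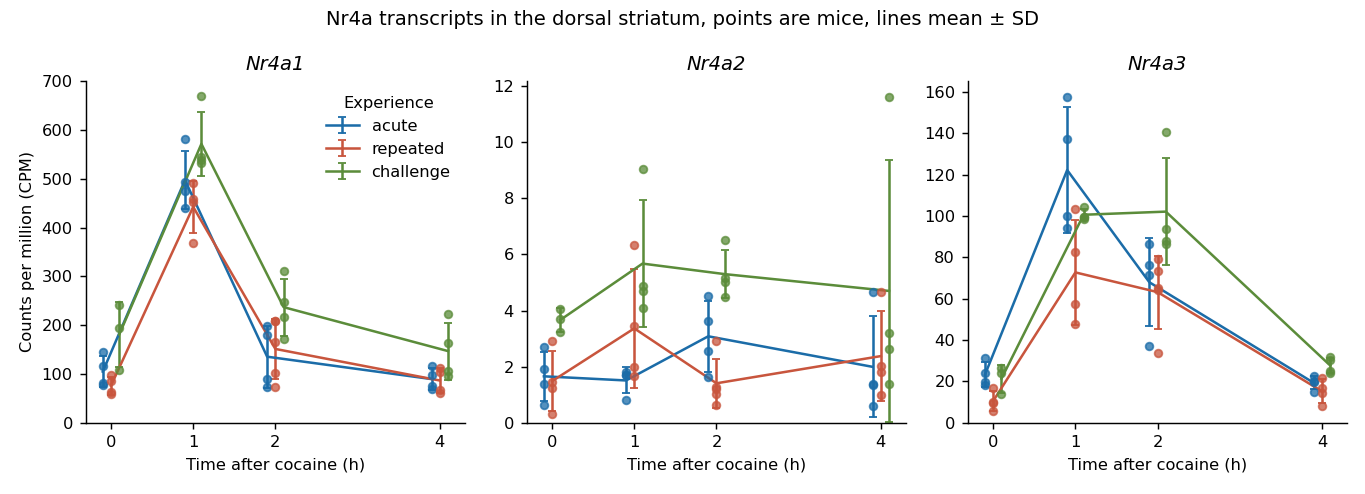
Levels of Nr4a1, Nr4a2 and Nr4a3 in the DS (CPM, 1 panel per gene with its own axis) against hours after cocaine on the acute, repeated and challenge schedules; each point is 1 mouse, and lines and error bars are group means ± SD. Nr4a1 means rise from 76.1–181 CPM at 0 hr to 443–572 CPM at 1 hr and are 136–237 CPM at 2 hr, Nr4a3 means are still 63.2–102 CPM at 2 hr, and Nr4a2 group means stay under 6 CPM.

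Because Nr4a1 and Nr4a3 are read in the same library, the log2 ratio of their counts, with 0.5 added to each, does not depend on the scaling of libraries and depends little on depth at these counts. It is read within 1 mouse, but each mouse was taken at 1 time, so its change over time is between mice. Levels of different genes are not comparable in 3′ counts, so only changes of this ratio between groups are read, not its level. From 0 to 1 hr the mean ratio of Nr4a3 to Nr4a1 moved by 0.09 (exact two-sided permutation p = 0.829), 0.25 (p = 0.429) and 0.56 (p = 0.0571, the smallest that 4 against 3 mice allow) in the acute, repeated and challenge schedules. From 1 to 2 hr it rose by 1.12, 1.46 and 1.29 log2 units, with every mouse at 2 hr above every mouse at 1 hr on each schedule. The exact permutation p was 0.0286 for acute, 0.0159 for repeated and 0.0286 for challenge cocaine, in each case the smallest these group sizes allow. Adjusted over the 6 tests, all 3 came to 0.0571 and so missed the threshold. At 4 hr the mean log2 ratios were −2.19, −2.53 and −2.33, against −2.05, −2.66 and −2.50 at 1 hr.

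**Figure D2:**
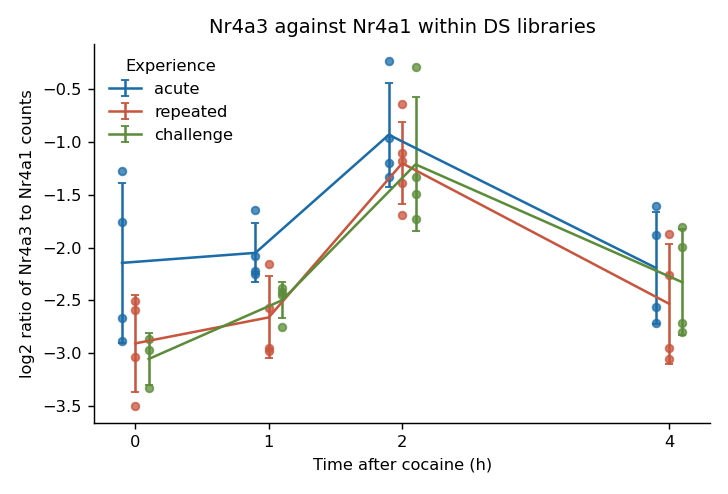
Log2 ratio of Nr4a3 to Nr4a1 counts in the DS against hours after cocaine, by schedule; each point is 1 mouse, and lines and error bars are group means ± SD. On all 3 schedules the points at 2 hr (means −0.93, −1.201 and −1.21) lie above all points at 1 hr (means −2.05, −2.66 and −2.50).

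At 1 hr, Nr4a1 was called in all 3 DS schedules and in 3 of the 12 combinations of structure and schedule outside the DS. Nr4a3 was called in 3 and in 1 of 12. With no filter on low counts, more calls of members were made in the NAc, LCtx and Amy. The log2 fold changes of both genes outside the DS were below those of the DS on the same schedule. The difference between structures was not tested. In the NAc, Nr4a1 was 62.2, 68.7, 71.2 and 90.5 CPM in naive mice and 110, 123, 130 and 162 CPM 1 hr after acute cocaine, 2 groups that did not overlap. The log2 fold change was 0.83 (adjusted p = 0.00224). After repeated cocaine Nr4a1 rose in the NAc from 47.9 and 51.7 CPM to 114 and 115 CPM, a log2 fold change of 1.203 (adjusted p = 0.00719). In challenged mice it lay at 83.9 and 93.9 CPM at 0 hr and at 109, 112, 115 and 123 CPM at 1 hr, again without overlap, but the log2 difference of 0.42 (95% interval 0.06 to 0.79, adjusted p = 0.351) was not called. Nr4a3 in the NAc went from 15.6, 21.8, 23.6 and 24.7 CPM to 52.0, 58.7, 59.8 and 70.9 CPM after acute cocaine, a log2 fold change of 1.49 (adjusted p = 2.16e-06). After repeated and challenge cocaine its log2 differences were 1.05 (adjusted p = 0.207) and 0.78 (adjusted p = 0.152). Both genes were called lower again at 2 hr than at 1 hr after acute cocaine in the NAc, Nr4a1 by −1.32 (adjusted p = 6.19e-06) and Nr4a3 by −0.94 (adjusted p = 0.0154), when 0.0617% of genes were called lower. At 2 hr Nr4a3 was 29.5, 30.4 and 34.2 CPM, still above each of the naive mice. Some of these calls rested on single mice: without the NAc mouse 4 of 1 hr, the acute rise of Nr4a1 was 0.71 (adjusted p = 0.0601), and the fall of Nr4a3 lost its call without that mouse (−0.86, adjusted p = 0.169) and without mouse 1, 2 or 3 of 2 hr (−0.90 to −1.02, adjusted p = 0.0965 to 0.303). The rise of Nr4a1 after repeated cocaine lost its call without any 1 of its 4 mice (1.15 to 1.25, adjusted p = 0.0688 to 0.371), and without challenge mouse 4 of 1 hr that of Nr4a3 after challenge was called (0.94, adjusted p = 0.0222). At 1 hr in the NAc, 0.100%, 0.0540% and 0.0617% of all 12966 genes tested were called higher after acute, repeated and challenge cocaine.

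In the LH, where groups held 1 or 2 mice, Nr4a1 was called after repeated cocaine only. It rose from 10.02 and 11.3 CPM at 0 hr to 31.1 and 32.6 CPM at 1 hr, a log2 fold change of 1.57 (adjusted p = 0.0129). Without any 1 of these 4 mice the rise of Nr4a1 kept its size (1.48 to 1.64) but lost its call (adjusted p = 0.0905 to 0.551). The shares of genes called higher at 1 hr in the LH were 0.0680%, 0.0302% and 0.00755% after acute, repeated and challenge cocaine. In the LCtx, Nr4a1 at 1 hr was 170 and 188 CPM after acute cocaine against 93.2, 117 and 123 CPM in naive mice, and 159 and 199 CPM against 89.0 and 113 CPM after repeated cocaine. The log2 differences were 0.67 (adjusted p = 0.0707), 0.83 (adjusted p = 0.146) and, after challenge, 0.57 (adjusted p = 0.935), none of them called although no 1 hr mouse fell to the level of a 0 hr mouse. In the Amy they were 0.87 (adjusted p = 0.117), 0.99 (adjusted p = 0.127) and 0.42 (adjusted p = 1). Without mouse 2 of 1 hr, the LCtx library with amygdala markers, the difference of Nr4a1 after acute cocaine was 0.74 (adjusted p = 1). The shares of all genes called higher at 1 hr were 0.327%, 0.0521% and 0.0297% in the LCtx and 0.0155%, 0.0233% and 0.0931% in the Amy after acute, repeated and challenge cocaine.

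Taken over the 15 combinations of structure and schedule, the direction at 1 hr was the same throughout for Nr4a1 and Nr4a3. The log2 difference of Nr4a1 was above 0 in 15 of 15, from 0.38 to 2.53, and called in 6, and its group mean peaked at 1 hr in all 15. In 13 of them every mouse at 1 hr lay above every mouse at 0 hr. Over all genes of at least 5 CPM and all combinations, 11.6% of cases were separated in that way. Nr4a3 was above 0 in 15 of 15 at 1 hr (0.24 to 2.77, called in 4) and at 2 hr (0.11 to 2.59, called in 3), with its highest group mean at 1 hr in 12 and at 2 hr in 3, and it was separated in 11 at 1 hr and in 8 at 2 hr, when 12.3% of cases over all genes were. Nr4a2 was above 0 in 13 of 15 at 1 hr, from −0.17 to 1.44, but was called in none (lowest adjusted p = 0.787) and separated in 5. Its highest group mean fell at 1 hr in 9 combinations, at 2 hr in 5 and at 0 hr in 1.

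**Figure D3:**
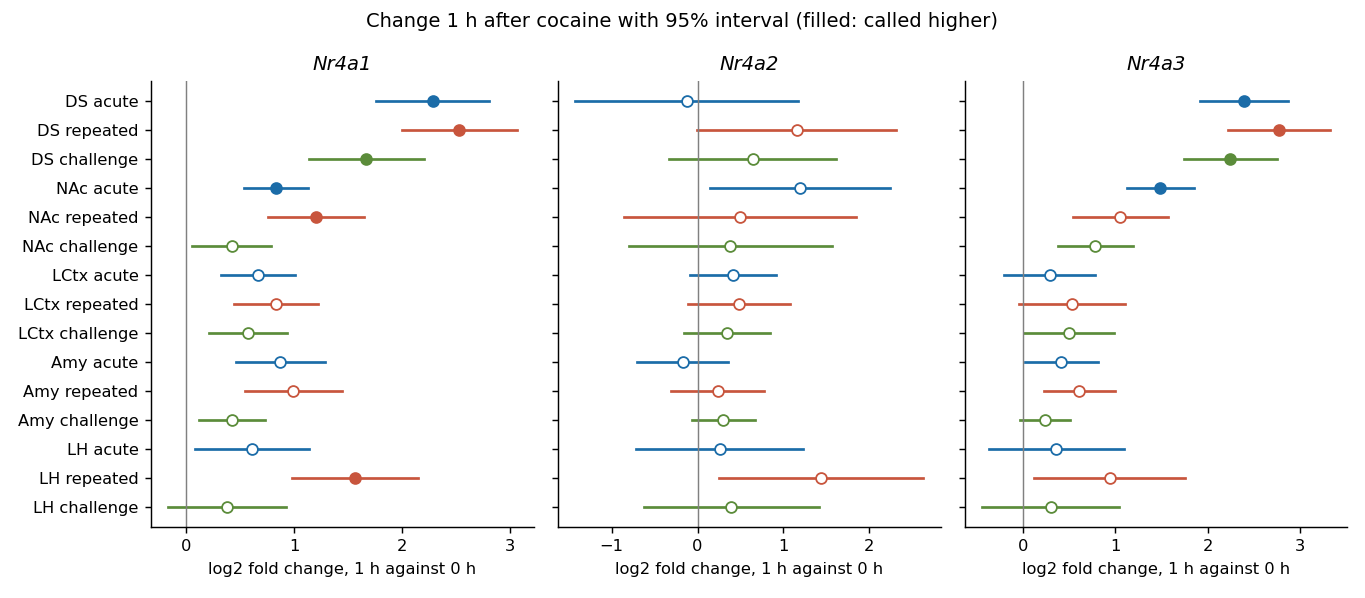
Log2 fold change from 0 to 1 hr after cocaine for each member (panels) in the 5 structures and 3 schedules, with 95% intervals from edgeR's fit; filled points are called. Nr4a1 is above 0 in all 15 combinations and called in 6, Nr4a3 is above 0 in all 15 and called in 4, and Nr4a2 is called in none and has its widest intervals in the DS, NAc and LH.

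Whether the schedule changed the size of the response was tested as the difference between the changes from 0 hr, in the same fit. None of the 135 such tests of members was called by edgeR or DESeq2, with 13 at an unadjusted p under 0.05 in edgeR. Over all genes, 0 of 12918 were called in the DS at 1 hr for any pair of schedules. No such contrast called more than 2 genes higher in any structure, so the lack of calls is not particular to the members. With no filter on low counts, differences for members were called in the NAc. In the DS at 1 hr, the rise of Nr4a1 after repeated cocaine differed from that after acute cocaine by 0.25 log2 units (95% interval −0.49 to 0.98) and that of Nr4a3 by 0.38 (−0.38 to 1.15). These are folds over 0 hr levels that differed between the schedules. The 1 hr level of Nr4a3 itself was 72.7 ± 25 CPM after repeated and 122 ± 30 CPM after acute cocaine (SD, n = 4 each), and that of Nr4a1 was 443 ± 53 and 498 ± 60 CPM. These acute and repeated libraries came from different runs, so run and schedule cannot be told apart in these levels. In 1 further run that holds 2 of these mice of each schedule at 1 hr, Nr4a3 was 99.8 and 109 CPM after repeated and 117 and 163 CPM after acute cocaine, and Nr4a1 was 376 and 452 CPM against 620 and 721 CPM. At 2 hr the difference for Nr4a3 was 1.08 (0.31 to 1.84, adjusted p = 0.497). The rise of Nr4a1 after challenge was smaller than after acute cocaine by −0.62 (−1.34 to 0.11) and than after repeated cocaine by −0.86 (−1.60 to −0.13, adjusted p = 1), while its level at 1 hr after challenge was 572 ± 66 CPM (SD, n = 4). These comparisons share their groups, and a schedule's 0 hr level enters each of them.

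The 0 hr level itself differed between mice of different cocaine experience. Each schedule had its own experiment number in the library names, and the DS mice of the repeated schedule came from 2 experiments. Experiment and cocaine experience therefore cannot be told apart at 0 hr, in a shared run as well. Abstinent mice were also older than naive and repeated mice, so their differences cannot be told apart from age. In the DS, Nr4a1 was lower 24 hr after repeated cocaine than in naive mice and higher again in abstinent mice, and Nr4a3 had the same order. The comparison used the 2 mice of each group that were sequenced in 1 shared run, with both repeated mice from 1 experiment. Nr4a1 lay at 96.2 and 129 CPM in naive mice, at 36.2 and 54.3 CPM after repeated cocaine and at 118 and 205 CPM in abstinent mice, so the repeated group lay below both others. The log2 difference between repeated and naive mice was −1.31 (95% interval −1.81 to −0.81, adjusted p = 0.00436), where 0.593% of 11465 genes tested were called lower. That between abstinent and repeated mice was 1.83 (adjusted p = 0.000279), where 0.445% were called higher. Abstinent and naive mice differed by 0.52 (0.07 to 0.98, adjusted p = 0.244), where 1.55% were called higher.

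Nr4a3 in the same libraries was 21.2 and 24.6 CPM in naive mice, 7.91 and 8.04 CPM after repeated cocaine and 24.2 and 30.8 CPM in abstinent mice. The repeated group, with 14 and 15 reads a library, again lay below both others. The difference from naive mice, −1.52 (95% interval −2.36 to −0.68, adjusted p = 0.0601), just missed the threshold, and abstinent mice were called above repeated mice, by 1.79 (adjusted p = 0.043). Without any 1 of those 4 mice that call was lost (1.61 to 1.96, adjusted p = 0.0608 to 0.14). Abstinent and naive mice differed by 0.27 (−0.48 to 1.02). Nr4a2 gave 13 and 14 reads in naive mice, 6 and 9 after repeated cocaine and 0 and 2 in abstinent mice, and none of its differences was called. The same 2 abstinent mice gave 15 and 16 Nr4a2 reads (3.23 and 4.06 CPM) in their libraries from another run, so the order of its DS levels at 0 hr depended on the run.

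The fall of Nr4a1 rested on few libraries. With every 0 hr mouse, the libraries of each mouse summed, its means were 105 ± 28 CPM in naive (n = 4), 70.9 ± 20 CPM in repeated (n = 4) and 172 ± 62 CPM in abstinent mice (n = 3), and the naive and repeated groups overlapped. The log2 difference between repeated and naive mice was then −0.61 (adjusted p = 0.0994), and between abstinent and repeated mice 1.29 (adjusted p = 0.0665), neither called. In the shared run, the repeated minus naive difference of −1.31 became −1.10 without naive mouse 3 and −1.05 without repeated mouse 3. Without the latter, the difference there between abstinent and repeated mice was 1.57. These fits left 1 mouse in a group, and none of these 3 differences was called. For Nr4a3, by contrast, every 0 hr mouse together gave 23.5 ± 5.7 CPM in naive and 10.6 ± 4.5 CPM in repeated mice, groups that did not overlap, and a log2 difference of −1.25 (adjusted p = 0.0111), which was called. The libraries added to the shared run here came from a different run for naive than for repeated mice. The difference between abstinent and repeated mice was 1.09 (adjusted p = 0.172) there. Summed over 4 endothelial markers, the repeated libraries of the shared run also held 217–268 CPM against 105–142 in naive and 148–159 in abstinent mice, while 9 markers of striatal projection neurons overlapped between naive and repeated mice (11430–11810 and 11040–12080 CPM). Of the 10 marker lists, 2 more did not overlap between the naive and repeated libraries. They were 2 ependymal markers (1.77–24.1 and 29.6–42.0 CPM) and 6 genes listed for claustrum and layer 6b neurons (507–554 and 420.0–506 CPM). The sum of these 6 was higher in the DS than in the LCtx (medians 485.6 and 289.5 CPM), so it does not mark that tissue here. The part of these lists in the lower Nr4a levels was not tested.

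Naive and repeated mice shared a run in the Amy and LH as well. In the Amy, Nr4a1 was 42.4 and 45.4 CPM in naive and 31.0 and 31.3 CPM in repeated mice, a log2 difference of −0.47 (−0.86 to −0.07, adjusted p = 0.367). In the LH it was 13.5 and 22.2 CPM against 10.02 and 11.3 CPM, a log2 difference of −0.74 (−1.34 to −0.14, adjusted p = 0.252). In the DS, Amy and LH the ratio of repeated to naive means was 0.402, 0.709 and 0.595, and both repeated libraries lay below both naive ones. Of genes of at least 5 CPM, the share separated in this way was 23.5% for DS, 26.1% for Amy and 28.7% for LH libraries, and 4.92% in all 3. Marker lists differed between the same libraries too, 5 of 10 without overlap in the Amy and 8 of 10 in the LH. In the Amy, 9 markers of striatal projection neurons summed to 1483–1789 CPM in naive and 832–1022 CPM in repeated mice. The 3 cortical markers Slc17a7, Tbr1 and Neurod6 summed to 748–750 and 924–1079 CPM, and the endothelial markers to 122–146 and 206–246 CPM. The remaining lists without overlap there were lower in repeated mice: the claustrum and layer 6b list (288.6–305 and 232.4–233.1 CPM) and choroid plexus markers (102.8–257.5 and 82.1–101.5 CPM). In the LH, endothelial markers were higher in repeated mice (161–167 and 214–218 CPM) and the other 7 lists without overlap were lower, the direction of Nr4a1, among them the 3 cortical markers (128–134 and 83.6–102 CPM), striatal markers (639–730 and 555–617 CPM), amygdala markers (91.6–134 and 68.9–79.2 CPM) and 3 choroid plexus markers (241–385 and 83.0–111 CPM). The part of these in the Nr4a1 levels was not tested. In the NAc and LCtx, Nr4a1 was also below naive mice, by −0.67 (adjusted p = 0.127) and −0.28 (adjusted p = 0.562), but there the run too cannot be told apart from the cocaine experience, and in the LCtx the naive libraries are those with the high blood markers. The repeated mice of this comparison lay below the naive ones in both, as 21.3% of genes did in the NAc and 1794 of 11238 (16%) in the LCtx. The comparison used 2 naive mice in each. In the LCtx it left out naive mouse 3, at 93.2 CPM, and with it the groups overlapped (repeated mice at 89.0 and 113 CPM). In the NAc all 4 naive mice (62.2 to 90.5 CPM) lay above the repeated ones (47.9 and 51.7 CPM). Without the NAc mouse with amygdala markers, the NAc difference was −0.62 (adjusted p = 0.58). The log2 difference of Nr4a1 was thus below 0 in all 5 structures, which share animals, and in this comparison called in the DS alone. With every 0 hr mouse the DS call was lost, while a lower call of a member was made in the NAc. The shares of genes called lower were 0.0327% in the NAc, 1.05% in the LCtx, 0.162% in the Amy and 0.429% in the LH. Nr4a3 did not have this order everywhere. Its log2 difference was 0.01 (−0.41 to 0.43) in the NAc and 0.27 (−0.08 to 0.62) in the Amy, where repeated and naive libraries overlapped (48.4 and 51.5 against 34.6 and 49.8 CPM), and in LH and LCtx samples it was −0.65 (−1.38 to 0.08) and −0.29 (−0.69 to 0.12).

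Abstinent mice outside the DS were sequenced in other runs than repeated mice, so their differences and the run cannot be told apart. With that limit, Nr4a1 was called higher in abstinent than in repeated mice in the NAc (0.88, adjusted p = 0.00599), the Amy (0.81, adjusted p = 0.00241) and the LH (1.11, adjusted p = 0.0339, 1 abstinent mouse), but not in the LCtx (0.05, 95% interval −0.23 to 0.34). With 1 abstinent mouse, the LH test took its spread from the other groups. Nr4a3 was called higher in the LCtx (0.71, adjusted p = 0.0244) and the Amy (0.60, adjusted p = 0.0078). Leaving out 1 repeated mouse ended the calls of Nr4a1 in the NAc (0.84 and 0.94, adjusted p = 0.28 and 0.0649), of Nr4a1 in the LH (without mouse 1, 1.03, adjusted p = 0.0648) and of Nr4a3 in the Amy (0.56 and 0.63, adjusted p = 0.105 and 0.0605), and leaving out mouse 1 of either group ended that of Nr4a3 in the LCtx (0.44 and 0.54, adjusted p = 0.413 and 0.255). Against these, 0.196% of genes in the NAc, 3.95% in the LCtx, 5.71% in the Amy and 1.67% in the LH were called higher. Compared with naive mice, abstinent mice had more Nr4a3 in the NAc (37.8 and 43.3 against 23.6 and 24.7 CPM, log2 difference 0.78, adjusted p = 0.022) and in the Amy (66.1, 78.2 and 83.1 against 34.6 and 49.8 CPM, log2 difference 0.87, adjusted p = 0.000652). The former call of Nr4a3 was lost without naive mouse 1 or 3 or abstinent mouse 1 (0.69 to 0.83, adjusted p = 0.113 to 0.161) and the latter without naive mouse 2 (0.62, adjusted p = 0.106). There 1.22% and 1.69% of genes were called higher, with 4.45% in the LCtx and 0.254% in the LH. Nr4a1 did not pass in either comparison with naive mice, at 0.21 (−0.09 to 0.51) in the NAc and 0.34 (0.02 to 0.67) in the Amy, and Nr4a2 was called in none of the 15 comparisons of schedules at 0 hr by edgeR or DESeq2, with 2 at an unadjusted p under 0.05 in edgeR.

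**Figure D4:**
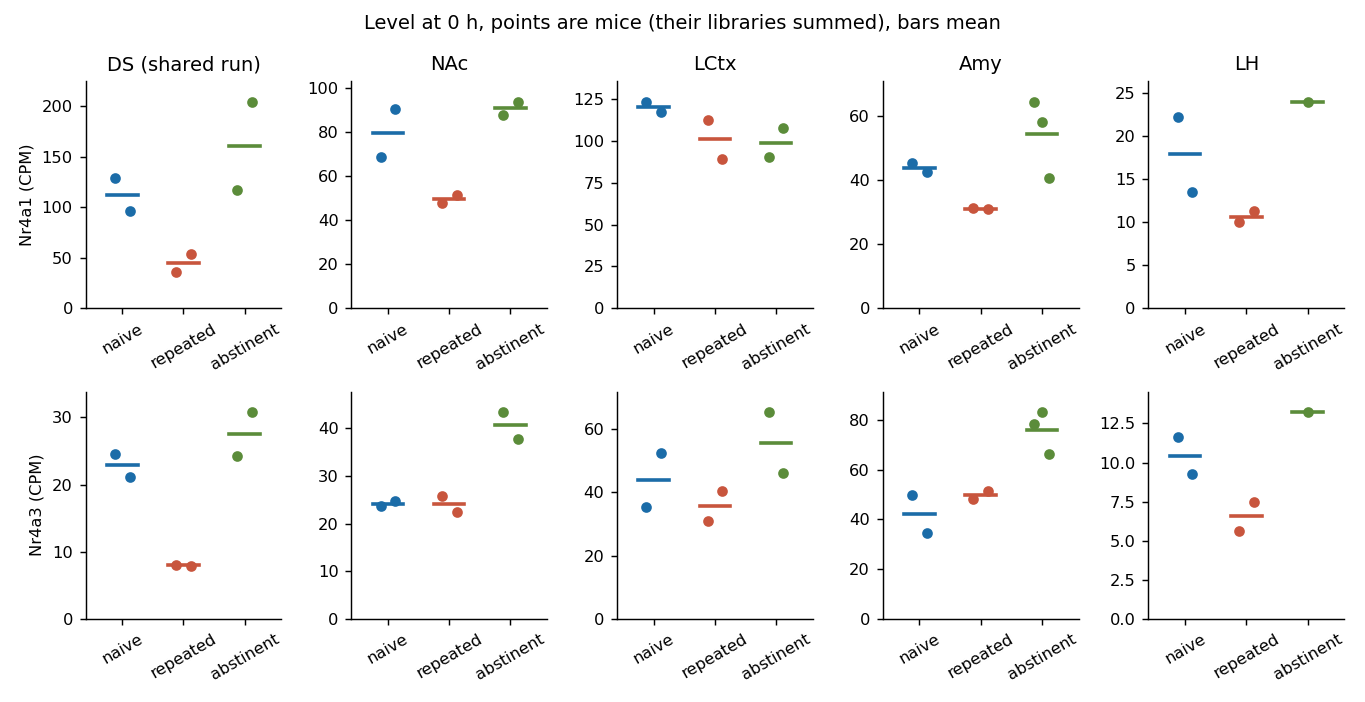
Levels of Nr4a1 and Nr4a3 (CPM) at 0 hr in naive, repeated-cocaine and abstinent mice of each structure; each point is 1 mouse of the comparison and bars are group means. In the DS the repeated mice (36.2 and 54.3 CPM for Nr4a1, 7.91 and 8.04 CPM for Nr4a3) lie below the naive and abstinent mice. The repeated mice shown lie below the naive ones for Nr4a1 in the other 4 structures too. In the LCtx, naive mouse 3, not in this comparison, had 93.2 CPM of Nr4a1, below the higher repeated mouse (113 CPM).

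The members also differed in where they were expressed at 0 hr. Over 38 samples of 11 animals at 0 hr, averaged over the schedules, Nr4a1 was highest in the DS and LCtx, Nr4a2 in the Amy, and Nr4a3 in the Amy and LCtx. Only the 15 samples of the acute schedule came from naive mice, and the mix of schedules differed between structures. In naive mice alone some neighbours changed places, without a test of their own. The mean of Nr4a3 was then 44.2 CPM in the LCtx and 42.2 in the Amy, and 23.3 in the DS and 21.4 in the NAc. That of Nr4a2 was 5.67 CPM in the LH and 5.34 in the NAc, and that of Nr4a1 111 CPM in the LCtx and 105 in the DS. The mean level of Nr4a1 was 115 CPM in the DS (58.6 to 241, median 97.2, n = 11), 105 in the LCtx (89.0 to 123, median 107, n = 7), 71.2 in the NAc (47.9 to 93.9, median 69.9, n = 8), 45.6 in the Amy (31.0 to 70.2, median 42.4, n = 7) and 16.2 in LH samples (10.02 to 23.97, median 13.5, n = 5). All neighbours in this order differed except the DS and LCtx, whose log2 difference was 0.14 (−0.11 to 0.39, adjusted p = 0.344). Nr4a2 ran in another order: its mean was 23.9 CPM in the Amy (17.2 to 34.7), 13.2 in the LCtx (9.41 to 17.3), 6.86 in the NAc (1.75 to 11.3), 4.20 in the LH (1.25 to 7.47) and 2.14 in the DS (0.326 to 4.06), and all 10 pairs of structures were called, that of the DS and LH (−0.85, adjusted p = 0.026) no longer when all libraries of each mouse were summed (−0.53, adjusted p = 0.15) or with the animal as a block (−0.44, adjusted p = 0.216). The DS was lower than the Amy by a log2 difference of −3.39 (adjusted p = 1.28e-17) for Nr4a2 and higher by 1.44 (adjusted p = 1.12e-12) for Nr4a1. Nr4a3 had means of 58.4 CPM in the Amy (34.6 to 83.1), 45.1 in the LCtx (31.0 to 65.4), 27.2 in the NAc (15.6 to 45.5), 18.1 in the DS (5.50 to 31.5) and 9.44 in the LH (5.64 to 13.2). Only the Amy and LCtx were not told apart, with a log2 difference between LCtx and Amy of −0.25 (−0.52 to 0.02, adjusted p = 0.177), which was called with the animal as a block (−0.29, adjusted p = 0.0436). These tests took samples of 1 animal as independent, and with that block no other call of a member between structures changed.

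Such differences were common among the 13831 genes tested. The share called in either direction was 34.3% between DS and NAc, 53.3% between DS and LCtx, 52.0% between DS and Amy, 58.7% between DS and LH, 39.6% between NAc and LCtx, 34.0% between NAc and Amy, 48.4% between NAc and LH, 23.8% between LCtx and Amy, 47.1% between LCtx and LH and 34.1% between Amy and LH. Structures mostly came from separate runs. Within the run that held the naive and repeated libraries of both the Amy and LH, the Amy was higher for all 3 members (log2 differences of 1.399 for Nr4a1, 2.56 for Nr4a2 and 2.46 for Nr4a3, all called), and in the 2 challenge runs, with the run as a term, these differences were 1.27, 2.49 and 2.56, also called. In the challenge runs the NAc and LCtx were not told apart for Nr4a1 (−0.11, 95% interval −0.39 to 0.17, adjusted p = 0.595), whereas within the run of the repeated NAc and LCtx libraries Nr4a1 was lower in the NAc (−1.02, adjusted p = 1.79e-05). In that run Nr4a2 was not called between NAc and LCtx (−0.29, −1.03 to 0.46).

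**Figure D5:**
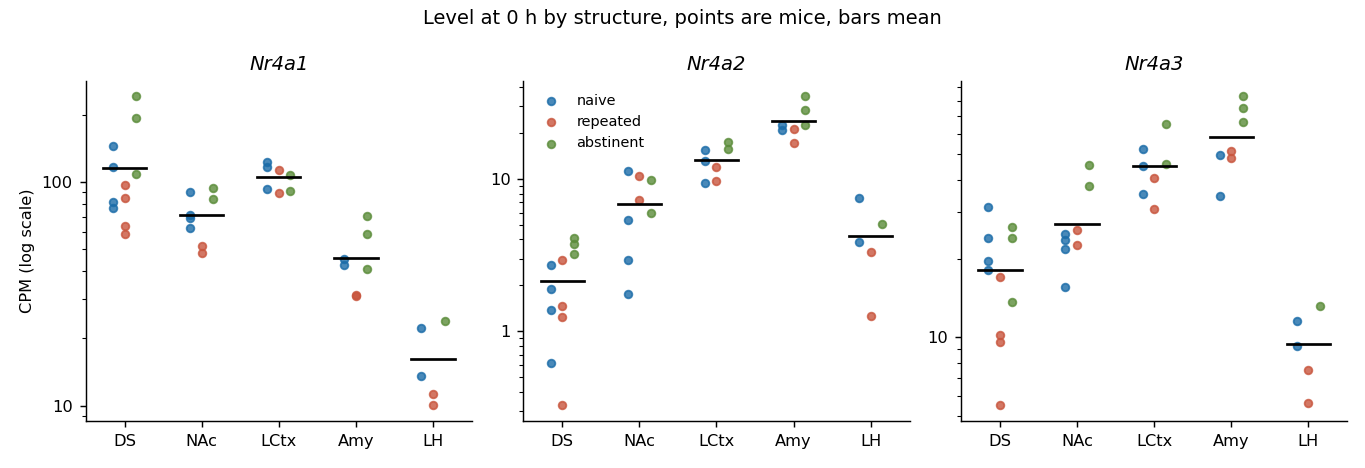
Levels of Nr4a1, Nr4a2 and Nr4a3 at 0 hr in the 5 structures (CPM on a log axis); each point is 1 mouse, coloured by schedule, and bars are means over the schedules' mice. Nr4a1 means run from 16.2 CPM in the LH to 115 CPM in the DS, whereas Nr4a2 is lowest in the DS (2.14 CPM) and highest in the Amy (23.9 CPM).

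In the NAc, Nr4a2 ran from 1.75 to 30.7 CPM over all 36 mice, and in naive mice alone from 1.75 to 11.3 CPM. The summed level of the cortical markers Slc17a7, Tbr1 and Neurod6 ran there from 32.6 to 595 CPM (median 199). It was 56.2 CPM in the mouse with the lowest Nr4a2, 371 CPM in the naive mouse with the highest, and 595 and 592 CPM in the mice with 26.0 and 30.7 CPM of Nr4a2, the highest of all. The order was not the same throughout: the naive mice with 2.95 and 5.41 CPM of Nr4a2 had 192 and 73.3 CPM of these markers. The part of cortical tissue in the NAc levels of Nr4a2 was not tested.

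The genes whose pattern was most like each member were found by Pearson's r of group means, log2(CPM + 1), over the 60 groups, each gene centred within its structure, among 11238 genes of at least 5 CPM on average. Nr4a1 was most like Junb (0.93), Egr2 (0.89), Fos (0.88), Arc (0.86) and Egr4 (0.85), which are IEGs of transcription factors and, for Arc, of a synaptic protein. Nr4a3 was most like Fosl2 (0.92), Egr4 (0.90), Egr1 (0.85), Fosb (0.80) and Egr2 (0.79). Nr4a2 was most like Neurod6 (0.74), a transcription factor of cortical excitatory neurons, then Eif3i (0.69), 3110035E14Rik (0.68), Dynll1 (0.67) and Tubb5 (0.66). Among the members, r was 0.78 for Nr4a1 with Nr4a3, 0.49 for Nr4a1 with Nr4a2 and 0.59 for Nr4a2 with Nr4a3. The points share libraries and 0 hr groups, so these values are descriptions.

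The wider pathway was read from 33 genes in 4 lists: retinoid X receptor partners, coregulators, the upstream activators and repressors of Nr4a genes (CREB, its CRTC coactivators, MEF2 factors and class IIa histone deacetylases), and genes that dopamine neurons need Nr4a2 to express. In edgeR's test none was called in any of the 60 time contrasts over all structures. There 113 of 1932 tests had an unadjusted p under 0.05 and DESeq2 made 4 calls. Over all genes, at most 0.697% were called higher and at most 0.534% lower in a time contrast. At 0 hr none of 90 tests between schedules in the DS was called by either tool (13 with an unadjusted p under 0.05 in edgeR). Of all genes there, 0.593% were called lower in repeated than in naive mice. In abstinent mice 1.55% were called higher than in naive and 0.445% higher than in repeated mice. At such shares, the lack of calls does not set the listed genes apart. In the other structures, 18 calls were made in 378 tests. Of these calls 17, 5 higher and 12 lower, were in 252 tests against abstinent mice, or 6.75%, where 4.99% of all gene tests in the same 8 comparisons were called in either direction (0.294% to 12.2%). The calls came at a share close to that of all genes and are given as values. Upstream genes made up 192 of the 378 tests and 17 of the 18 calls, and a difference between the lists was not tested. Hdac7, a class IIa deacetylase that represses MEF2 targets, was lower in abstinent mice than in naive mice in the NAc (−1.28, adjusted p = 0.0073) and LCtx (−0.88, adjusted p = 0.00929), and than in repeated mice in the LCtx (−0.72) and Amy (−0.60). Its relative Hdac5 was higher in abstinent than in naive mice in the LCtx (0.41) and lower than in repeated mice in the Amy (−0.46) and LH (−0.42), and Hdac4 was lower in the Amy (−0.51). Crtc1, a CREB coactivator, was higher in abstinent mice than in both other groups in the LCtx (0.43 and 0.48) and lower than in both in the Amy (−0.48 and −0.68, the latter with adjusted p = 0.000237), and lower than in repeated mice in the LH (−0.55, adjusted p = 0.0336). Mef2c, a neuronal transcription factor, was higher in abstinent than in naive mice in the NAc (0.52) and lower in the LH (−0.89). The LH calls of Mef2c, Crtc1 and Hdac5 against abstinent mice rest on 1 abstinent mouse. In the Amy, abstinent mice had more Crem, a CREB relative, than repeated mice (0.60) and less Rxrb, a partner of Nr4a receptors (−0.39). The only call without abstinent mice was Mef2c in the LH, lower after repeated cocaine than in naive mice by a log2 difference of −0.95 (adjusted p = 0.00709), in the libraries whose cortical, striatal and amygdala markers were also lower. Mef2c was 3.86 log2 units higher in the LCtx than in the LH, a contrast in which 47.1% of genes were called. The part of those markers in the lower Mef2c after repeated cocaine was not tested. As for the members, all these calls against abstinent mice set different runs against each other, so a difference between runs cannot be told apart from one of experience.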

How the data were processed

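The deposited values were whole-number gene counts, obtained by the authors from 3′ RNA-seq reads (STAR, HTSeq and GRCm38 are named in the submitters' processing notes, with no versions). Groups followed the GEO labels. The induction analysis used 1 library per mouse, 143 outside the LH, and in the LH libraries of 1 mouse were summed. Counts were filtered by filterByExpr, scaled by TMM (factors 0.936 to 1.05 in the DS) and tested with edgeR 4.0.16 (R 4.3.3), separately by structure, with DESeq2 1.42.0 as an alternative. The 0 hr comparison used libraries of a shared run in the DS, and 2 naive mice each in the NAc and LCtx. Permutation tests used scipy 1.17.1. Scripts were tested on simulated data. Error intervals cover replicate spread, at 95% confidence. Replicates are labelled as separate mice. No pair of libraries agreed within sampling noise (lowest chi-square per degree of freedom 1.56). The animal as a block between structures and the experiment as a DS covariate were chosen after seeing the data. Members and gene lists were chosen with earlier results of these data known. The members are named in every comparison, listed genes where called, and the 5 most alike genes by r. Apart from Mef2c, listed genes were not described between structures. Replicate numbers did not pair the samples: over 11 pairs in the DS the correlations of deviations ran from −0.0739 to 0.174. 1 listed cortical marker is not reported here.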

Additional observations from a re-analysis of the deposited data

Results flagged for a closer look

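In 8 of 63 cases, each 1 gene in 1 group of 4 or 5 mice, the highest or lowest mouse stood apart by Dixon's criterion. Chance does this in about 1 in 20 cases, or 3.15 here. The 3 genes were read in the same mice, so the cases are not independent. In the DS 1 hr after challenge, the highest Nr4a1 mouse had 670 CPM against 533–545 CPM in the other 3, and the highest Nr4a3 mouse 105 CPM (104.57) against 98.8–99.6 CPM, a small gap in a tight group. The highest Nr4a3 mouse 2 hr after challenge had 140 CPM (140.48) against 86.3–93.8 CPM. In the NAc 1 hr after challenge the lowest Nr4a3 mouse had 40.2 CPM against 75.3–81.4 CPM, and 2 hr after challenge the highest Nr4a2 mouse had 30.7 CPM against 12.3–15.4 CPM. The other 3 were Nr4a2 in the DS at a few reads: the lowest mouse 1 hr after acute cocaine (0.818 CPM against 1.69–1.82), the highest 2 hr after repeated cocaine (2.90 CPM against 0.648–1.27) and the highest 1 hr after challenge (9.05 CPM against 4.08–4.87).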

How the results depend on the processing

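No called value changed sign under any alternative that was run, while 250 values of 130 uncalled results did. In the DS the 1 hr calls of Nr4a1 and Nr4a3 held under every alternative. At 0 hr, the repeated minus naive difference of Nr4a1 lost its call with every 0 hr mouse (−0.61) and with the libraries of the induction analysis (−0.51), and without 1 mouse ranged from −1.66 to −1.05. That of Nr4a3 gained a call with no filter on low counts (−1.53), with every 0 hr mouse (−1.25), with all time points (−1.51) and with the induction libraries (−1.22). The abstinent minus naive difference of Nr4a1 was called with the induction libraries (0.74). The abstinent minus repeated difference lost its call with every 0 hr mouse for Nr4a1 (1.29) and Nr4a3 (1.09), and with the induction libraries for Nr4a3 (1.01), and without 1 mouse ranged from 1.39 to 2.19 for Nr4a1 and from 1.61 to 1.96 for Nr4a3. The rise of Nr4a1 2 hr after repeated cocaine was called with no filter (1.00) and ranged from 0.85 to 1.18 without 1 mouse. The cause of these changes was not tested.

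Counts of member calls moved as follows. With no filter, calls at 1 hr were 6 in the NAc (from 3), 3 in the LCtx and 3 in the Amy (from 0 each), calls at 2 hr were 2 in the NAc and 1 in the Amy (from 0), differences in induction were 3 in the NAc (from 0), and lower calls at 0 hr were 2 in the DS (from 1) and 1 in the NAc (from 0). With the run as a covariate, calls at 1 hr were 2 in the LCtx and 1 in the Amy. With DESeq2, higher calls at 0 hr were 1 in the DS and 1 in the NAc (from 2 each) and 0 in the LCtx and LH (from 1 each). With every 0 hr mouse they were 0 in the DS, and lower calls in the NAc were 1. With all time points, higher calls were 0 in the NAc and LCtx and lower calls 2 in the DS.

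The replicate numbers share only a number (3 of 11 DS pairs correlated above 0.1, all in the repeated schedule, and 3 correlated best with their own number). Within that schedule the numbers follow the 2 experiments of the library names. With the experiment as a covariate, chosen after seeing the data, no DS call of a member over time changed. With the replicate number as a block, the 2 hr rise of Nr4a1 after repeated cocaine was called (1.18), and at 0 hr in the DS the repeated minus naive difference of Nr4a3 was called (−1.52) and its abstinent minus repeated difference was not (1.68). Higher calls at 0 hr under this replicate block were 5 in the Amy (from 3), 1 each in the DS and NAc, and 0 in the LH, lower calls in the DS were 2, and calls at 1 hr in the Amy were 2.

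Precision was limited by 1 or 2 mice in many groups outside the DS, and by depth for Nr4a2, which had at most 34 reads in the DS libraries of the induction analysis.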
